A study of Mus musculus with 16 samples.

Results

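The 9 genes described here are Prph2, Rom1, Prom1, BC027072, Cdhr1, Fscn2, Tulp1, Rp1 and Rp1l1. They encode structural proteins of the photoreceptor outer segment and, for Tulp1, a protein of transport to it. They were chosen by name as the rows of the deposited table of all genes that carry these symbols, and all 9 were found among its 25905 genes. The study compared the retinas of mice flown in space with those of mice kept on the ground. The 16 samples were 8 labelled spaceflight and 8 labelled ground control, each a right retina from a wild type C57BL/6 mouse. The labels give an age of 10 weeks in both groups. The methods of the study give this as the age of the male mice when flown, so the flown mice were older when their retinas were taken. The labels show no age difference between the groups. The libraries of both groups were made with a stranded kit from 100 ng of total RNA. The 16 count columns of the table of counts are named with laboratory codes that match no sample label, so they were not used, and no comparison of spaceflight with ground control was made. Depth per sample and the spread between mice were not analysed here. What follows is the level of each gene as the authors' mean over all 16 samples, which has no error of its own.

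The outer segment is a modified cilium packed with membrane discs that hold the proteins of phototransduction, and it is rebuilt throughout life from its base. Peripherin-2 (Prph2) and its partner Rom1 are tetraspanins that form the curved rim of the discs. Prominin-1 (Prom1), the photoreceptor cadherin Cdhr1 and the actin regulator PCARE, listed here under its older symbol BC027072, act where new discs form. Rp1 and Rp1l1 are doublecortin-domain proteins bound to the microtubules of the axoneme, the core of the cilium. Fscn2 bundles actin filaments, and Tulp1 is needed for the transport of proteins to the outer segment. Mutations in several of these genes cause inherited retinal degeneration in people.

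When the deposited counts of the retina were divided by transcript length, 8 of the 9 genes were among the most abundant, and Prom1 was not. Prom1 alone of the 9 has several transcripts listed in the table of counts, as described below. The part of this in its low value was not tested. Levels were taken as the mean normalized count, which is the mean over the libraries of counts divided by a size factor for depth. To compare genes, this count was divided by the length of the gene's longest matched transcript in kb. Per kb, 8 of 9 genes were at or above percentile 90 of the 16873 genes with a value above 0 and a known length, the lowest of them at 94.5. The median level of the 9 genes was 2971 per kb, beside 1146 for the list of other outer segment and cilium genes and 25.9 for all genes above 0. Together the 9 genes held 1.52% of the normalized count summed over the genes of the deposited table, which is not a share of all RNA of the retina. In a whole retina, fewer cells of a type and less RNA per cell cannot be told apart, so these are levels of the tissue.

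The tetraspanins of the disc rim were the most abundant of the 9 per unit length. Prph2 had a mean normalized count of 29706, which is 11147 per kb and rank 11 of the 16873 genes. Rom1 had 15515 counts, which is 10227.5 per kb and rank 12. The count of Prph2 was thus 1.91 times that of Rom1, but its transcript is 2665 bases long against 1517, and per kb the ratio was 1.09. Their coding sequences are of near equal length, 346 and 351 residues in the GENCODE annotation of GRCm38. Whether a difference of this size exceeds the spread between mice could not be read from a pooled mean.

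Of the other proteins of disc formation, Cdhr1 and BC027072 had high counts and Prom1 a low one. Cdhr1, which joins the edge of a new disc to the inner segment, had 12870 counts, or 2971 per kb. BC027072, which acts on actin at the base of the outer segment, had 3938 counts, or 785 per kb, and was at percentile 97.5. Prom1, a membrane protein of new disc edges, had 9.13 counts, or 2.30 per kb, at percentile 26.9. The next higher of the 9 genes, Fscn2, was 187 times Prom1 per kb of the longest transcript, 122 times per kb of the shortest and 80.6 times by count. It was 13.8 times Prom1 when only the bases in 1 transcript were taken as the length, as described below. Per kb of the longest transcript, Rom1 was 3.44 times Cdhr1 and Prph2 was 3.75 times Cdhr1.

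Between the axoneme proteins the order was the same on either scale. Rp1 had a mean normalized count of 25506 and Rp1l1 of 6699, a ratio of 3.81. Both have long transcripts, of 6869 and 6684 bases, and encode the longest proteins of the 9, with 2095 and 1859 residues. Per kb, Rp1 was at 3713 and Rp1l1 at 1002, a ratio of 3.70. Length correction changed how Rp1 stood beside Prph2: by count Prph2 was 1.16 times Rp1, and per kb it was 3.0 times Rp1.

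Tulp1, the transport protein, had 11162 counts and stood next below the tetraspanins per kb at 5338, rank 27 in the retina. It was 6.80 times BC027072 per kb. Fscn2, the actin bundling protein, had 736 counts and was the lowest of the 8 abundant genes at 430 per kb. By count it ranked 2002, and per kb it ranked 924. BC027072 was 1.83 times Fscn2 per kb, and from Prph2 to Fscn2 the level fell across a ratio of 25.9. The gene order of these 8 depended on length for Rp1, which was above Rom1, Tulp1 and Cdhr1 by count and below Rom1 and Tulp1 per kb. Cdhr1 was above Tulp1 by count and below it per kb.

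**Figure D1:**
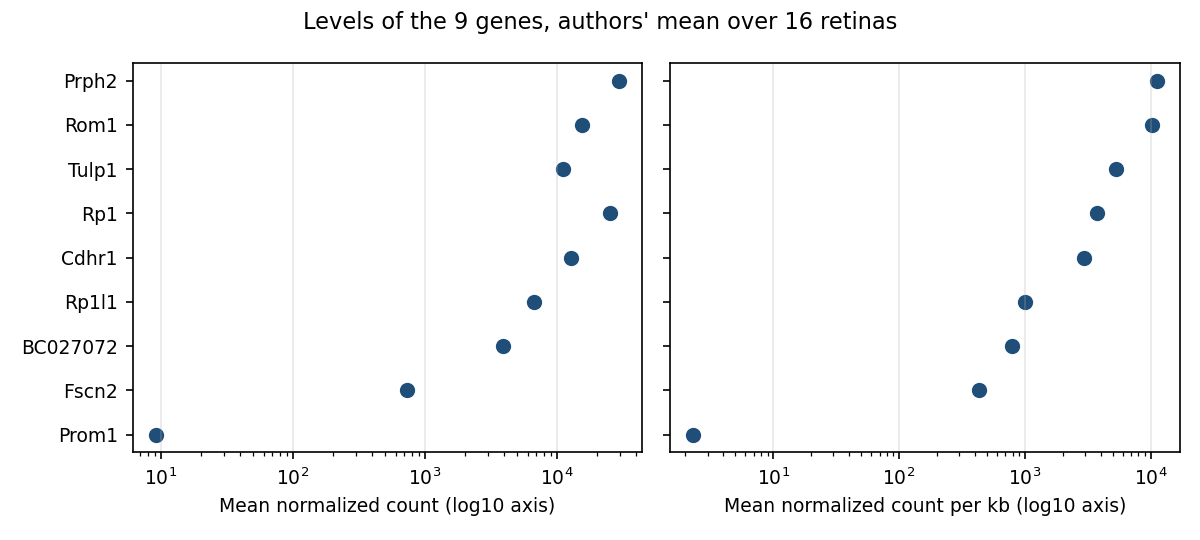
Mean normalized count (left) and mean normalized count per kb of the longest matched transcript (right) of the 9 genes, each point the authors' mean over 16 retinas with no error bar, on log10 axes. Prph2 is highest on both scales at 29706 counts and 11147 per kb, and Prom1 is lowest at 9.13 counts and 2.30 per kb.

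The 9 genes were then placed among 36 other genes of the outer segment and its cilium, of which 35 are in the table and 25 were at or above percentile 90. Among the highest were Gnat1, the alpha subunit of rod transducin, at 66356 per kb, and Pde6g, the inhibitory subunit of the rod phosphodiesterase, at 20503.5. Prph2 and Rom1 came next to each other below Sag, the rod arrestin, at 17311 and above Rcvrn, the calcium sensor recoverin, at 9567. Only 4 genes of the list were higher than this pair, and they included the transducin subunit. Tulp1 lay between the guanylate cyclase activator Guca1a at 5600 and the phosphodiesterase catalytic subunit Pde6a at 5086. Rp1 lay between Guca1b, a second cyclase activator, at 3800 and Arl3, a small GTPase of lipidated protein transport, at 3341.

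The other 5 genes stood below these. Cdhr1, with 14 genes of the list above it, lay between the rod channel subunit Cnga1 at 3161 per kb and the photoreceptor kinase Grk1 at 2074. Rp1l1 lay between Impg1, a protein of the matrix around the outer segment, at 1146 and the guanylate cyclase Gucy2e at 812. BC027072 lay just under the ciliary protein Fam161a, at 788, and above Impg2, a second matrix protein, at 604. Fscn2 followed Impg2, with 21 genes of the list above it. Prom1 lay at the end of the list, with 33 genes above it, between Rpgr at 2.73 and Mak at 1.67. The lowest value was that of Gnb1, the beta subunit of rod transducin, at 0.0848 per kb. Rpgr, Prom1, Mak and Gnb1 each have several listed transcripts, as described below. The part of this in their low place was not tested. Since the means carry no spread, none of these neighbours can be said to differ from the gene beside it.

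**Figure D2:**
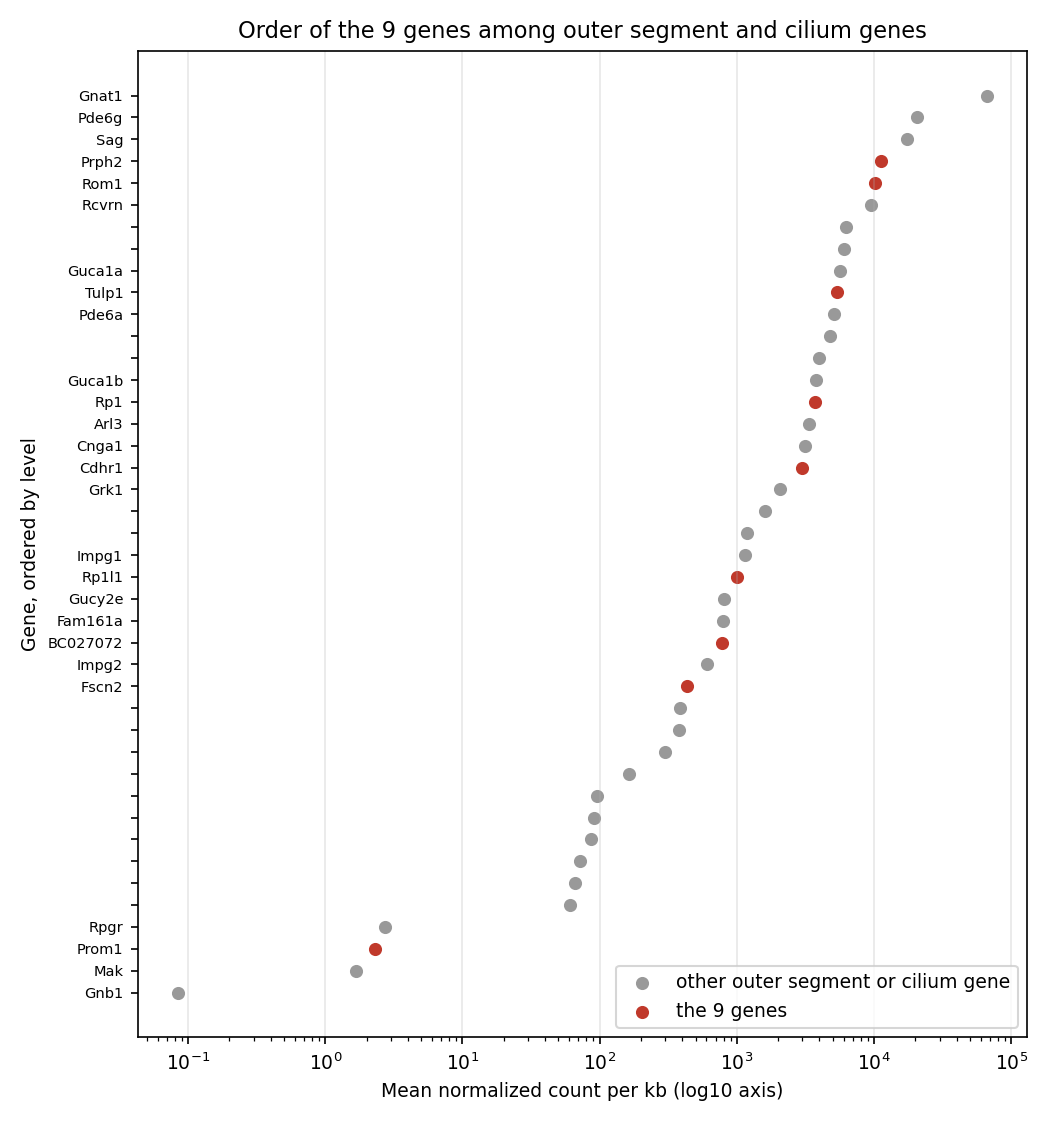
Mean normalized count per kb (log10 axis) of the 9 genes in red and of 33 other outer segment and cilium genes in grey, ordered by level, with the genes named in the text labelled, each point the authors' mean over 16 retinas. The red points run from Prph2 at 11147 to Fscn2 at 430, with Prom1 apart at 2.30 beside Rpgr and Mak.

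Marker genes of retinal cells bear on how these levels are read. Of 7 rod markers 6 were at or above percentile 90, and the list held 6.06% of the summed count. Among them were Gnat1 at 154477 counts and the lowest, the rod factor Nrl, at 88.9. Of 8 cone markers 4 were at or above percentile 90, with 0.102% of the summed count, from the short-wavelength opsin Opn1sw at 2800 to Pde6c at 0.0699. Bipolar markers (3 of 4, lowest Grm6), Müller glia markers (3 of 4, highest Glul and lowest Rlbp1) and ganglion cell markers (2 of 4, highest Nefl and lowest Rbpms) held 0.148%, 0.354% and 0.0595%. The low markers Nrl, Pde6c, Rlbp1 and Rbpms each have several listed transcripts, as described below. The part of this in these shares was not tested. Of markers from outside the neural retina, 1 of 6 of the pigment epithelium and 1 of 5 of the lens were at or above percentile 90. Pigment epithelium markers held 0.0120% (Ttr 540 counts, Best1 2.72) and lens markers 0.0174% (Cryaa 898, Lim2 8.74). Per kb, Cryaa at 709 and Ttr at 455 were above Fscn2, the lowest of the 8 abundant genes. Blood markers held 0.000156% (Hbb-b1 10.7, Alas2 at 0) and skeletal muscle markers 0.000294% (Acta1 8.94, Myh4 7.20), with 0 of 3 at or above percentile 90 in each.

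Prom1 differed from the other 8 genes in how many transcripts are listed for it. The deposited table of counts has a row for each transcript, 31616 in all, and a further row for reads it calls ambiguous. Each of the other 8 genes has 1 transcript in it, and Prom1 has 8. All 8 were matched by accession to the GENCODE annotation of GRCm38, where they correspond to 7 distinct transcripts on the minus strand of chromosome 5. Counts of transcripts that hold a base are over these 7. The 7 transcripts cover 4090 exonic bases, of which 2477 (60.6%) are in all 7 and 293 (7.16%) are in exactly 1. Of those 293 bases, 273 are in a noncoding stretch at the 5′ end, chr5:44101682-44101954, and 18 are coding.

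The coding differences between the Prom1 transcripts are short, as 5 of their 8 variable stretches show. They are printed 5′ to 3′ on the minus strand of GRCm38 as they stand in a transcript, with the variable stretch in capitals and 15 bases of its neighbours in lower case, and the coordinates are those of the capitals.
Prom1 chr5:44058626-44058652, in 2 of 7 transcripts: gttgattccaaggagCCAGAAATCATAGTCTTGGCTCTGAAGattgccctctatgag
Prom1 chr5:44056069-44056083, in 6 of 7 transcripts: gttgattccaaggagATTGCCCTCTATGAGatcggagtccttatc
Prom1 chr5:44034347-44034421, in 5 of 7 transcripts: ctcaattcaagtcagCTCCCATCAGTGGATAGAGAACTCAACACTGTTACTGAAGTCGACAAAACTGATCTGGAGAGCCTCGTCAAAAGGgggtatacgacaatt
Prom1 chr5:44012499-44012516, in 1 of 7 transcripts: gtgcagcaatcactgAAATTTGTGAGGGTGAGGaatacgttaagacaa
Prom1 chr5:44001270-44001293, in 2 of 7 transcripts: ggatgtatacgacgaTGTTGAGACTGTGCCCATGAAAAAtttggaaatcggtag

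These stretches are 27, 15, 75, 18 and 24 bases long, and the 8 together come to 275 bases, from 13 to 75 each. All other bases that are coding in each transcript holding them are in all 7. Divided by the 293 bases that are in 1 transcript alone, the mean normalized count of Prom1 came to 31.2 per kb, at percentile 50.8 when every gene was treated so. The order of the 9 genes was the same on that scale, with Prom1 lowest, and Fscn2 was 13.8 times Prom1.

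**Figure D3:**
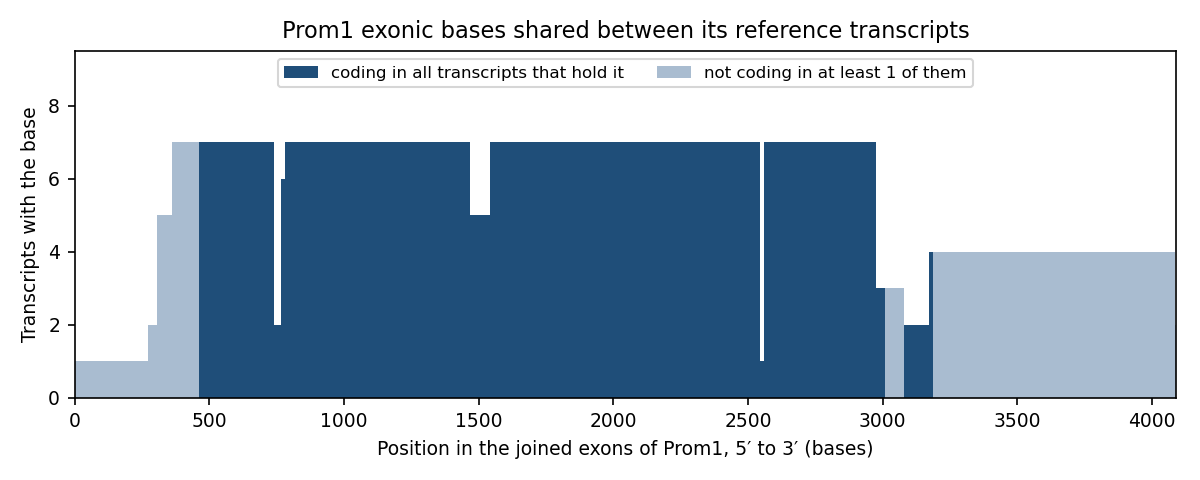
Number of the 7 reference transcripts of Prom1 (vertical axis) that hold each of its 4090 exonic bases (horizontal axis, 5′ to 3′ along the joined exons), in dark blue where coding in all transcripts that hold the base and in light blue elsewhere. Most coding bases are at 7, and the bases at 1 are the 273 at the left end and narrow steps elsewhere.

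A low level in genes with several listed transcripts was not particular to Prom1. Among all genes with a matched length, those with 1 listed transcript had a median mean normalized count of 41.3 (n = 17964) and 40.8% of them were under 10. Genes with 2 had a median of 0.802 (n = 2529), with 73.8% under 10. Genes with 3 to 5 had a median of 1.53 (n = 949), with 74.8% under 10. Genes with 6 or more had a median of 0.559 (n = 85), with 80% under 10. At or below the mean normalized count of Prom1 were 80% of the genes with 6 or more transcripts and 40.4% of those with 1.

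Genes with several listed transcripts were also split by the share of their exonic bases that are in exactly 1 transcript. This was done for the 2781 genes matched to 2 or more distinct reference transcripts, and the 782 matched to fewer were left out. The median count was higher in each class of larger share. Where that share was below 10%, as for Prom1, the median count was 0.317 (n = 866) and 91.9% of genes were under 10. From 10 to 25% the median was 1.71 (n = 648), from 25 to 50% it was 2.60 (n = 591), and from 50 up to and including 100% it was 18 (n = 676), where 42.6% were under 10. Per kb of the bases in exactly 1 transcript, among genes with such bases, the class medians did not rise throughout. In the same order they were 2.74, 3.69, 2.45 and 6.43, and Prom1 was at 31.2 on that scale. The part of read assignment in the level of Prom1 was not tested, since the counts per library were not used.

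The same split was seen among genes of the retina. In the list of outer segment and cilium genes, the 31 with 1 listed transcript had a median of 1592 per kb, 0 of them were under 10 counts, and the lowest was at 145. The 4 with 2 or more had a median of 2.20 per kb, from 0.266 to 387 counts, and 2 of them, Mak and Gnb1, were under 10. With the 9 genes and the markers of rods, cones, bipolar cells, Müller glia and ganglion cells added, 45 of 55 genes with 1 transcript were at or above percentile 90, and 1 of 11 with 2 or more. Beside Prom1 these 11 were Pde6c (0.0699 counts), Gnb1 (0.266), Rlbp1 (1.39), Gngt2 (4.02), Rbpms (5.53), Mak (5.95), Rpgr (10.4), Nrl (88.9), Rpgrip1 (387) and Trpm1 (2866), of which Gngt2, Rpgrip1 and Trpm1 are named after their values were seen. Trpm1, the channel of ON bipolar cells and the highest of the 11, has 73.9% of its exonic bases in exactly 1 transcript. Within the 11 the level did not follow this share throughout: Nrl has 3.27% and Rpgrip1 16.2%, while the lower Gngt2 has 39.6% and Pde6c 15.5%.

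**Figure D4:**
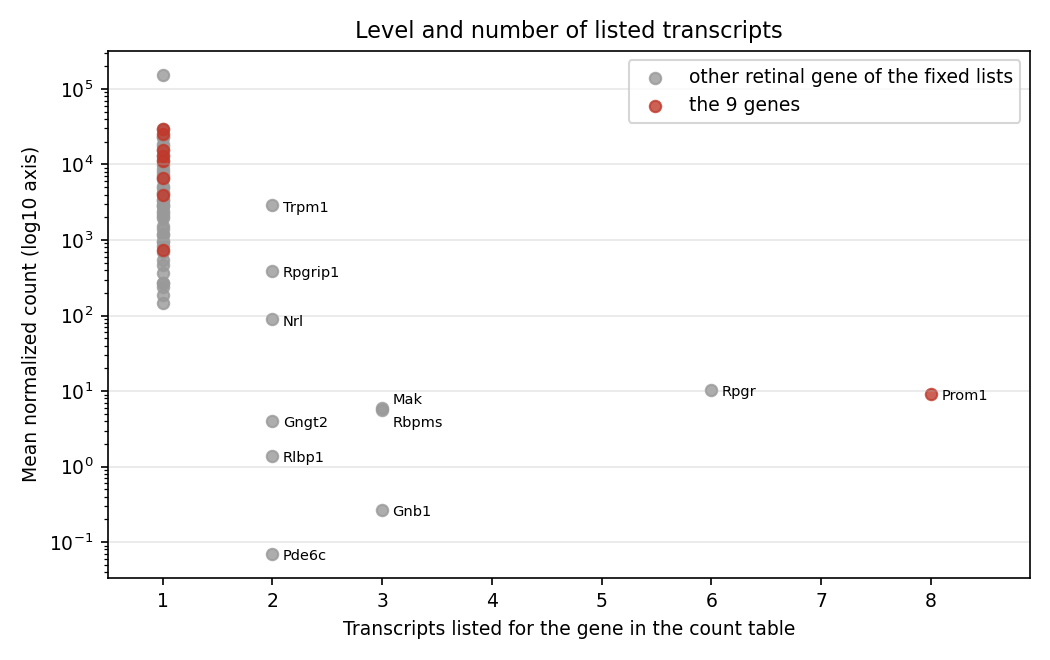
Mean normalized count (log10 axis) against the number of transcripts listed for the gene in the table of counts, for the 9 genes in red and other retinal genes of the lists in grey, each point the authors' mean over 16 retinas. Genes with 1 transcript lie at or above 145 counts, and the 11 with 2 or more, which are named, run from Pde6c at 0.0699 to Trpm1 at 2866.

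The sequence before the start of the genes was searched for motifs of photoreceptor and general factors. The RefSeq promoter table of GRCm38.p6 held 7 of the 9 genes, with 8 promoters, and did not match Rp1 and Rp1l1. Over the 250 bases before the start, on both strands, TAATCC, the core bound by the photoreceptor factors CRX and OTX2, was found in 1 of 7 genes, BC027072. It was in 1 of the 8 promoters, beside 6.25% of all 32851 promoters and 5.84% of the 1557 promoters of abundant genes. TGCTGA, a part of the site of NRL, was found in 1 of 8 promoters, that of BC027072 (16.1% of all promoters and 12.2% of those of abundant genes). TATAAA was found in 1 of 8, that of Fscn2, on the minus strand (12.4% and 7.77%). CACGTG was found in 0 of 8 (6.02% and 9.76%). The shorter TAATC, which every TAATCC holds, was found in 3 of 7 genes, BC027072, Prph2 and Prom1. It was in 3 of the 8 promoters, beside 19.8% of all promoters and 14.3% of those of abundant genes.

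The 150 bases before the start of Prph2 and BC027072, which hold TAATC, and of Rom1, which does not although its level per kb is next to that of Prph2, are shown to set them side by side. Each is printed 5′ to 3′ on the strand of the gene from RefSeq GRCm38.p6, with TAATC on either strand in capitals.
Prph2 chr17:46910328-46910477, plus strand: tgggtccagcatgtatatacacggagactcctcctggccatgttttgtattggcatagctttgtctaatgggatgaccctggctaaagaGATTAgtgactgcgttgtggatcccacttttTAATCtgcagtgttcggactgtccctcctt
BC027072 chr17:71752906-71753055, minus strand: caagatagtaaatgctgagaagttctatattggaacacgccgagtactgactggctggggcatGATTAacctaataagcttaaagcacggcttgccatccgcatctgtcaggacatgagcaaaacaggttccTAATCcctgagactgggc
Rom1 chr19:8929357-8929506, minus strand: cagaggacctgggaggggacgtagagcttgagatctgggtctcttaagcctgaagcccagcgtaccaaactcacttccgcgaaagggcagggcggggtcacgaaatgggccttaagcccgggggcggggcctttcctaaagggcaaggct

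In Prph2 the matches lie 61 to 57 and 30 to 26 bases before the start, the first on the minus strand. In BC027072 they lie 161 to 157, 87 to 83 and 18 to 14 bases before it, the first of which is outside the stretch printed. A match of these letters is a description and shows no binding.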

How the data were processed

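RNA was measured by sequencing of stranded libraries from 16 mouse retinas. Per the submitters' processing notes and the study's methods, Trimmomatic was used for trimming, TopHat2 for mapping to an NCBI mouse build older than GRCm38, HTSeq for counting and DESeq2 1.22.2 in R 3.5.1 for the comparison. The signal used here is the mean normalized count that the authors deposited for each gene, the mean over the 16 libraries of counts divided by DESeq2 size factors. The other columns of that table hold the authors' own comparison of spaceflight with ground control (log2 fold changes, standard errors, Wald statistics and p-values) and were not used. The 32 columns of counts per library, 16 in each of 2 tables, match no sample label and were not used, so the planned edgeR test was not run. Of the table of counts, only the transcript accessions and symbols, 31616 transcripts, were read.

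Transcript lengths, shared exonic bases and coding lengths came from GENCODE M21 on GRCm38, matched by RefSeq accession for 19855 genes and by symbol for 1672, with 4378 unmatched. Their coordinates are not those of the authors' build. Promoters came from RefSeq GRCm38.p6. Percentiles are among genes above 0 that have a length (85.8% of genes above 0). Scripts ran in Python 3.11.15 with pandas 2.3.3 and were tested on simulated data. The genes and lists were chosen with earlier results of these data known. Named were all 9 genes, the highest and lowest 3 of the list of other outer segment and cilium genes with the neighbours of each of the 9 genes in it, and the highest and lowest of each marker list, except some that are not reported here. Alternatives were the shortest transcript, genes with a mean of at least 10, no length correction and a shorter motif.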

Additional observations from a re-analysis of the deposited data

How the results depend on the processing

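The count of the 9 genes at or above percentile 90 was 8 with the shortest transcript, with genes of a mean of at least 10, and, in an alternative chosen after seeing the data, with the bases in 1 transcript as the length. It was 7 with no length correction, where Fscn2 was at 89.8. Over these 4 settings the percentiles of the 8 genes other than Prom1 moved by -4.70 to 1.58, and that of Prom1, 26.9, became 29.5, 0.797, 36.4 and 50.8 with the shortest transcript, genes of at least 10, no length correction and bases in 1 transcript. Prom1, with a mean of 9.13, is itself below the minimum of 10, so its low percentile among genes of at least 10 follows from that filter. By count in place of per kb, the ratios of Prph2 to Fscn2, Prph2 to Cdhr1, Rom1 to Cdhr1, Tulp1 to BC027072 and BC027072 to Fscn2 became 40.4, 2.31, 1.21, 2.83 and 5.35. With TAATC in place of TAATCC the promoter motif was in 3 genes in place of 1, as the shorter letters imply. No paired analysis was possible because the count columns carry no replicate number and no result comes from a test. The edgeR test, its alternatives in DESeq2 and without a filter, and the alignment of the proteins with its alternative were not run. A pooled mean gives no spread between mice, so the precision of the levels is unknown, and depth per library was not analysed here.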
